A study of Mus musculus with 15 samples.

Results

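The expression of 4 chemokine genes was followed across the 5 groups of the study: Cxcl9, Cxcl10, Cxcl11 and Cxcl16. The products of Cxcl9 and Cxcl10 are ligands of the receptor CXCR3, and that of Cxcl16 binds CXCR6. Cxcl11 is named for another CXCR3 ligand, but RefSeq lists it as a transcribed pseudogene in the mouse reference. All 4 were taken by gene symbol, 1 probe set each, from the 19937 genes measured on 15 Affymetrix arrays. The cells were D1 cells, a dendritic cell (DC) line kept long-term in GM-CSF and derived from the spleen of C57BL/6 mice. In the groups with FK506, the cells received 10 µg/ml curdlan together with FK506 for 2 h or 4 h. In the curdlan groups they received 10 µg/ml curdlan alone for 2 h or 4 h, and the remaining group was nontreated. Curdlan is a beta-glucan that is bound by dectin-1 (Clec7a), and FK506 blocks calcineurin, the phosphatase that lets NFAT factors enter the nucleus. Each group had 3 arrays, labelled as biological replicates. No source used here says that they came from separate cultures, so p values measure the spread between these samples, which may be technical. The same 3 nontreated arrays served both times, and no arrays of FK506 without curdlan were analysed here. D1 is 1 line, so no value speaks for other DCs.

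Chemokines are small secreted proteins that steer leukocytes along gradients. The CXCR3 ligands draw activated T cells and NK cells, and DCs that make them are known to bring T cells into contact with antigen. Cxcl9 is best known as a target of interferon-γ, while Cxcl10 also answers to type I interferon and NF-κB. CXCL16 differs in being made as a membrane protein with a chemokine domain on a stalk. It can hold CXCR6-bearing T cells at the cell surface, take up oxidised lipoprotein, or be shed by the proteases ADAM10 and ADAM17.

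The values were log2 RMA levels, and a gene passed the test where the limma adjusted p was under 0.05 and the fold change was 1.5 or more. In whole cultures, fewer cells of a kind and less RNA per cell cannot be told apart. Mean correlations with the other arrays of a group lay between 0.993 and 0.999, and replicate 1 of the nontreated cells and replicate 3 of curdlan 2 h differed most from their groups, with array weights of 0.0781 and 0.119. The median change of all genes was -0.12 on the log2 scale between curdlan 4 h and nontreated cells. Of the DC markers 6 of 6 were measured. Itgax, Cd74, H2-Ab1 and Clec7a were high in every group, Flt3 was low, and none passed the test in any comparison of curdlan or FK506. Markers of plasmacytoid DCs, T cells, NK cells, B cells, neutrophils and fibroblasts also held no gene that passed. The macrophage list did (3 of 4 measured): Mertk, a receptor kinase for dying cells, was lower with FK506, by 1.53 at 2 h and by 2.20 at 4 h on the log2 scale, while Adgre1 and Cd68 did not pass. The mean log2 level of these 3 markers lay between 9.74 and 9.78 in the arrays with FK506 at 4 h. With curdlan alone it was 10.45 to 10.50. Mertk carried this gap, at a mean of 6.17 with FK506 at 4 h and 8.38 with curdlan alone. Adgre1 averaged 11.67 and 11.73 in the same order, and Cd68, which went the other way, 11.45 and 11.31. Any part of these markers in the chemokine results was not tested.

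Cxcl9, Cxcl10 and Cxcl11 are neighbours on mouse chromosome 5, and Cxcl16 lies on chromosome 11. Of these genes, only Cxcl9 and Cxcl10 had a promoter window in RefSeq. The windows, from 250 bases before to 50 bases after the start, are shown for that reason. Both are written 5′ to 3′ on the minus strand, which is the strand of the genes (GRCm38.p6, chr5:92328030-92328329 for Cxcl9 and chr5:92348840-92349139 for Cxcl10). Capitals mark matches to the NFAT core GGAAAA, the interferon response element core (2 copies of GAAA with any 2 bases between them) and the kappa B consensus, each searched on both strands. No matches overlapped.
Cxcl9: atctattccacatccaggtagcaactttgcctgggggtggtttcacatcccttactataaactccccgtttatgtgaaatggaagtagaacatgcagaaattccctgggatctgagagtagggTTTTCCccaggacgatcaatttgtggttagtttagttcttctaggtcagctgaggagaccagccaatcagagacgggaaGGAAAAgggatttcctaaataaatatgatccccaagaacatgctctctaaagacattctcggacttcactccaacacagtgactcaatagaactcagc
Cxcl10: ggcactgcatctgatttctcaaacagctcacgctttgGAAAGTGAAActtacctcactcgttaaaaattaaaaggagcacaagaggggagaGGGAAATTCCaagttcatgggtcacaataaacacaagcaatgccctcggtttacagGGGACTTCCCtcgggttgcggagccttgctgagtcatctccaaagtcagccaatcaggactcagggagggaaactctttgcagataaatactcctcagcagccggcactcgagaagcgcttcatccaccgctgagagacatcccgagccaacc
The Cxcl9 window held 2 matches to the NFAT core, which begin 127 bases before the start (on the other strand, so read here as TTTTCC) and 48 bases before it. It held no match to the other motifs. The Cxcl10 window held 1 match to the interferon response element core, GAAAGTGAAA, which begins 213 bases before the start. It also held 2 kappa B matches, GGGAAATTCC and GGGACTTCCC, beginning 159 and 103 bases before the start, and no NFAT core. Of 32851 promoter windows of this length, 23.4% held the NFAT core, 3.44% the interferon response element core and 4.51% the kappa B consensus. A match is a description of letters and not evidence that a factor bound there.

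Cxcl9 was raised by curdlan and was almost at the nontreated level when FK506 was present. At 2 h its level was 5.91, 5.93 and 6.03 in the arrays with FK506, against 6.99, 7.15 and 6.83 with curdlan alone. At 4 h it was 6.17, 6.06 and 6.08 with FK506, against 9.72, 9.96 and 9.66 with curdlan alone. The nontreated arrays held 5.80, 5.80 and 5.87. Every array with curdlan alone lay above every array of the other groups at the same time, and all 4 h curdlan arrays lay above all 2 h ones.

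**Figure D1:**
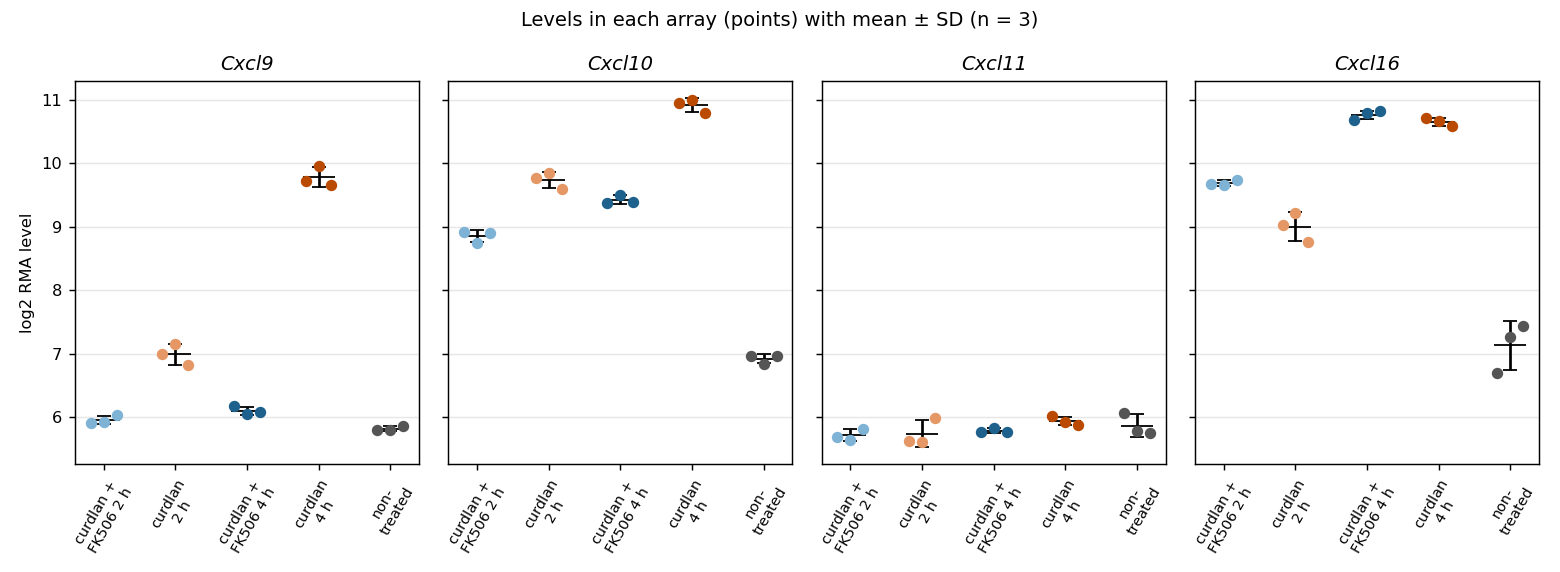
Log2 RMA level (vertical axis) of the 4 genes in each group (horizontal axis). Points are single arrays and bars show the mean ± SD of 3 arrays. At 4 h Cxcl9 averages 6.10 with FK506 and 9.78 with curdlan alone, and Cxcl16 averages 10.8 with FK506 and 10.7 with curdlan alone.

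Against nontreated cells, curdlan raised Cxcl9 by 1.17 ± 0.085 (SE) at 2 h, a 2.25-fold difference (limma adjusted p = 2.31e-07), and by 3.96 ± 0.085 at 4 h, which is 15.5-fold (limma adjusted p = 4.35e-13). The step between the times was 2.79 (limma adjusted p = 1.05e-10). With FK506, Cxcl9 fell by 1.03 at 2 h relative to curdlan alone (limma adjusted p = 2.84e-06) and by 3.68 at 4 h (limma adjusted p = 1.31e-11). The 4 h difference was the largest of all 19937 genes in that comparison, in either direction. It held that rank in each of the 25 alternative settings listed in the processing account. Many of these, such as leaving out arrays of other groups, could not change the difference. Without single arrays it lay between -3.74 and -3.59. FK506 cells at 2 h did not pass the test against nontreated cells, at 0.14 ± 0.085 (limma adjusted p = 0.271). At 4 h they were 0.28 ± 0.085 above them (limma adjusted p = 0.0249), which is under the fold threshold. On the linear scale of these values, 7.93% of the curdlan rise was left with FK506 at 2 h and 1.47% at 4 h. The files used here give no detection call, so whether nontreated Cxcl9 lay above background is not known. If it did not, the folds over nontreated cells are lower bounds, and the shares are approximate in any case.

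Cxcl10 was also raised by curdlan and lowered by FK506, but most of its log2 rise was left. At 2 h its level was 8.92, 8.75 and 8.91 with FK506, against 9.77, 9.85 and 9.59 with curdlan alone. At 4 h it was 9.37, 9.51 and 9.39 with FK506, against 10.95, 11.00 and 10.79 with curdlan alone. The nontreated arrays held 6.96, 6.84 and 6.97. The groups at each time did not overlap, and the arrays with FK506 at 4 h also lay below all curdlan arrays at 2 h, a difference that was not tested.

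Curdlan raised Cxcl10 over nontreated cells by 2.81 ± 0.077 at 2 h (7.02-fold, limma adjusted p = 9.29e-12) and by 3.99 ± 0.077 at 4 h (15.9-fold, limma adjusted p = 1.70e-13). Cells with FK506 were still higher than nontreated cells, by 1.93 at 2 h (limma adjusted p = 6.75e-10) and by 2.50 at 4 h (limma adjusted p = 2.89e-11). FK506 lowered Cxcl10 relative to curdlan alone: it fell by 0.88 at 2 h (limma adjusted p = 5.12e-06) and by 1.49 at 4 h (limma adjusted p = 2.75e-08). Of the linear rise, 46.8% was left at 2 h and 31.3% at 4 h. Between 2 h and 4 h, Cxcl10 differed by 0.57 with FK506 (limma adjusted p = 0.000152), which is just under the fold threshold, and rose by 1.18 with curdlan alone (limma adjusted p = 9.38e-08). The step with FK506 passed without replicate 1 (0.60) or replicate 3 (0.59) of curdlan + FK506 2 h and without replicate 1 of curdlan + FK506 4 h (0.59).

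Cxcl11 did not pass the test in any of the 9 comparisons. Its level at 2 h was 5.70, 5.64 and 5.82 with FK506, against 5.63, 5.62 and 5.99 with curdlan alone. At 4 h it was 5.77, 5.83 and 5.77 with FK506, against 6.02, 5.93 and 5.88 with curdlan alone. The nontreated arrays held 6.07, 5.78 and 5.76. Most groups overlapped. At 4 h the arrays with FK506 lay below those with curdlan alone, and there the difference was -0.15 ± 0.10 (limma adjusted p = 0.513). Curdlan against nontreated cells gave -0.13 at 2 h (limma adjusted p = 0.510) and 0.07 at 4 h (limma adjusted p = 0.575). Without both arrays that differed most from their groups, the -0.15 had limma adjusted p = 0.0455. Curdlan at 4 h was then 0.17 above nontreated cells (limma adjusted p = 0.0238) and 0.32 above curdlan at 2 h (limma adjusted p = 0.000549). In the other comparisons the adjusted p stayed above 0.05, and all values were under the fold threshold. RefSeq lists Cxcl11 as a transcribed pseudogene in its C57BL/6J reference, and the D1 line is of the C57BL/6 background. Its values are therefore not read here as those of a working ligand.

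Cxcl16 was raised by curdlan at both times, and at 2 h it was higher with FK506 than with curdlan alone. At 2 h its level was 9.67, 9.66 and 9.75 with FK506, against 9.03, 9.22 and 8.76 with curdlan alone. At 4 h it was 10.69, 10.79 and 10.82 with FK506, against 10.71, 10.67 and 10.59 with curdlan alone. The nontreated arrays held 6.69, 7.27 and 7.44. At 2 h every array with FK506 lay above every array with curdlan alone, whereas at 4 h the groups overlapped, and the lowest nontreated value came from replicate 1, the array that differed most from its group.

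Curdlan raised Cxcl16 over nontreated cells by 1.87 ± 0.15 at 2 h (3.65-fold, limma adjusted p = 7.61e-07) and by 3.52 ± 0.15 at 4 h (11.5-fold, limma adjusted p = 4.82e-10). Without nontreated replicate 1 these values were 1.65 and 3.30, with the same calls. With FK506 present, Cxcl16 was higher than in nontreated cells by 2.56 at 2 h (limma adjusted p = 5.16e-08) and by 3.63 at 4 h (limma adjusted p = 6.88e-10). Relative to curdlan alone it was higher with FK506 at 2 h by 0.69 ± 0.15, or 1.61-fold (limma adjusted p = 0.0120). This call rested on curdlan 2 h replicate 3, without which the difference was 0.57 (limma adjusted p = 0.0560), and on curdlan + FK506 2 h replicate 3, without which it was 0.66 (limma adjusted p = 0.0530). At 4 h the difference was 0.11 ± 0.15 (limma adjusted p = 0.809). The rise between 2 h and 4 h was 1.07 with FK506 (limma adjusted p = 0.000223) and 1.65 with curdlan alone (limma adjusted p = 2.34e-06).

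**Figure D2:**
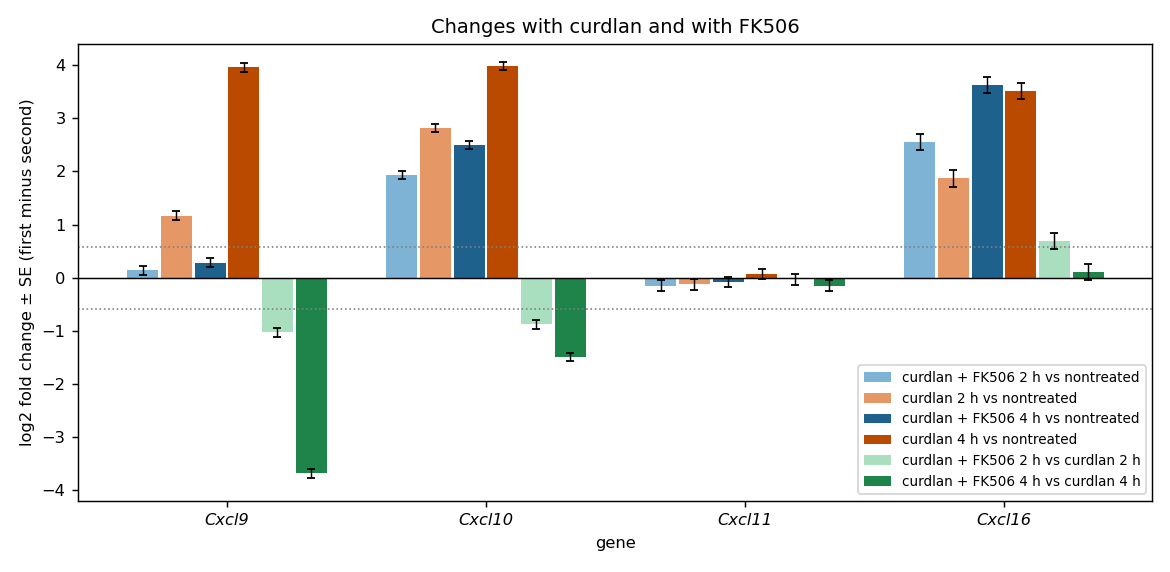
Log2 fold change ± SE (vertical axis) of each gene (horizontal axis) in 6 comparisons, with dotted lines at the fold threshold of 1.5. For Cxcl9 the bars for FK506 against nontreated cells stay at 0.14 and 0.28, while for Cxcl16 they reach 2.56 and 3.63.

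Against the background of all genes, 3 of the 4 chemokine genes were higher with curdlan than in nontreated cells at 2 h, beside 2.2% of all genes, and none was lower, beside 1.4%. The same 3 were higher at 4 h, beside 5.05% of all genes. With FK506, 2 of 4 (Cxcl10 and Cxcl16) were above nontreated cells at 2 h, beside 1.81% of all genes, and the same 2 at 4 h, beside 2.95%. Relative to curdlan alone, FK506 lowered 2 of 4 (Cxcl9 and Cxcl10) at 2 h, beside 0.762% of all genes, and raised 1 (Cxcl16), beside 0.361%. At 4 h it lowered the same 2, beside 1.53% of all genes, and raised none of the 4, beside 0.211%. Between the times, 1 of 4 (Cxcl16) was higher at 4 h with FK506, beside 0.903% of all genes, and 3 of 4 with curdlan alone, beside 2.79%.

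The size of the FK506 effect on the log2 scale differed between the times for both Cxcl9 and Cxcl10. The curdlan rise it was measured against was also larger at 4 h. Of that log2 rise, 11.6% was left with FK506 at 2 h and 7.08% at 4 h for Cxcl9. For Cxcl10 the shares were 68.7% and 62.7%, and a change in these shares was not tested. The effect at 4 h minus that at 2 h was -2.65 ± 0.12 for Cxcl9 (limma adjusted p = 3.80e-08) and -0.61 ± 0.11 for Cxcl10 (limma adjusted p = 0.00512), so that 2 of 4 genes passed, beside 1.06% of all genes in that direction. The Cxcl10 value lay close to the fold threshold and was under it when any 1 of 4 arrays was left out, at -0.54 without curdlan 2 h replicate 3, -0.57 without curdlan 4 h replicate 2 and -0.58 without replicate 1 or replicate 3 of curdlan + FK506 2 h. For Cxcl16 it was -0.58 ± 0.22 (limma adjusted p = 0.181), and for Cxcl11 -0.12 (limma adjusted p = 0.638). Without nontreated replicate 1, an array outside this difference, Cxcl16 gave -0.58 ± 0.13 (limma adjusted p = 0.0172). Without both arrays that differed most from their groups it gave -0.46 (limma adjusted p = 0.00688). Both values were under the fold threshold.

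**Figure D3:**
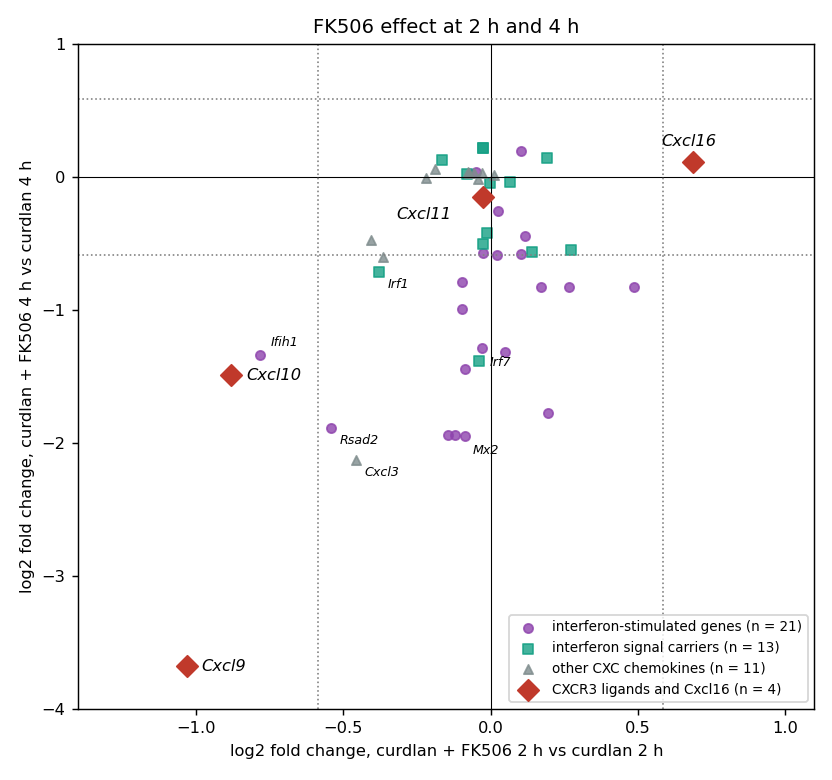
Log2 fold change with FK506 at 2 h (horizontal axis) and at 4 h (vertical axis), each against curdlan alone, for the 4 chemokine genes (diamonds) and for 3 other gene lists, with dotted lines at the fold threshold of 1.5. Cxcl9 lies at -1.03 and -3.68, and Cxcl16 at 0.69 and 0.11.

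Of the 5 receptors and processing enzymes of these chemokines, all measured, 1 was higher with curdlan than in nontreated cells at 4 h, beside 5.05% of all genes, and none passed with FK506 against curdlan alone at either time. Adam17, the sheddase, was higher than in nontreated cells by 0.64 both with FK506 at 4 h (limma adjusted p = 2.51e-07) and with curdlan alone at 4 h (limma adjusted p = 1.63e-07). The second of these calls was lost with repeated quantile normalization, at 0.56. Adam10 stood at 0.25 and Dpp4, the peptidase that trims CXCR3 ligands, at -0.21 in the curdlan 4 h comparison, both under the fold threshold. Cxcr3 and Cxcr6, at -0.16 and 0.07, did not pass either. Their median was 0.07, against -0.12 over all genes.

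Among interferons and their receptors, 8 of 9 genes were measured and none passed with curdlan at either time. Over all genes, 2.2% were higher and 1.4% lower at 2 h, and 5.05% and 4.15% at 4 h. Without nontreated replicate 1, 1 of the 8 was higher and 1 lower at 4 h. Ifnb1, the type I interferon of many stimulated cells, stood at -0.25 with curdlan at 4 h (limma adjusted p = 0.165). Ifng, the interferon-γ gene, was lower with FK506 at 4 h by 0.69 (5.88, 5.76 and 5.75 with FK506, against 6.53, 6.49 and 6.45 with curdlan alone), a change with limma adjusted p = 0.000217. Of the 8 measured genes it was the only gene lowered by FK506 at 4 h, beside 1.53% of all genes. Group means of Ifng lay between 5.80 and 6.49, under the median of 6.76 over all genes, and no detection call was given. Its log2 fold change over nontreated cells with curdlan at 4 h, 0.51, was under the fold threshold. Without nontreated replicate 1 it was 0.64, which passes. Of the signal carriers downstream, 13 of 14 were measured. Curdlan raised 5 at 4 h, beside 5.05% of all genes, among them Irf8 (2.40), Socs3 (2.00), Irf7 (1.56) and Irf1 (1.06). FK506 lowered 2 of the 13 at 4 h, beside 1.53% of all genes. These were Irf7, a driver of interferon genes, which fell by 1.38, and Irf1, an activator of chemokine genes, which fell by 0.72 (limma adjusted p = 2.94e-07). A different probe set of Irf1 gave -0.41, under the threshold.

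The interferon-stimulated genes, 21 of 24 measured, moved with FK506 mainly at 4 h. Curdlan raised 3 at 2 h, beside 2.2% of all genes, and lowered 1, beside 1.4%. Without nontreated replicate 1 or without curdlan 2 h replicate 1, curdlan lowered 3. It raised 17 at 4 h, beside 5.05% of all genes. Ifi205 (5.15), Rsad2 (3.60), Ifit1 (3.41) and Ifit3 (2.65) showed the largest changes. FK506 lowered 1 of the 21 at 2 h, beside 0.762% of all genes. This was Ifih1 (-0.78), a sensor of viral RNA named after its value was seen. Rsad2, at -0.54, was under the fold threshold and passed without curdlan 2 h replicate 3 (-0.62), without curdlan + FK506 2 h replicate 3 (-0.60) and with array weights (-0.68), which gives 2 of the 21. At 4 h FK506 lowered 15 of the 21, beside 1.53% of all genes. The largest of these changes were in the antiviral genes Mx2 (-1.95), Ifit1 (-1.94), Ifit2 (-1.94) and Rsad2 (-1.89). The median of the list with FK506 was -0.03 at 2 h and -0.83 at 4 h, while that of all genes was -0.03 and 0.03. The change in FK506 effect from the earlier to the later time passed its own test, toward lower values, for 15 of the 21. Among all genes that share was 1.06%.

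All of 11 other CXC chemokine genes were measured. Curdlan raised 1 at 2 h, beside 2.2% of all genes, and 3 at 4 h, beside 5.05%. Those at 4 h were Cxcl2 (6.32), Cxcl3 (3.21) and Ppbp (2.16), attractants of neutrophils. At 2 h the count was 2 without nontreated replicate 1, where Cxcl3 passed (0.69), and without nontreated replicate 2 (0.69) or curdlan 2 h replicate 3 (0.66), where Ppbp passed. It was 3 with repeated quantile normalization, where both passed (0.61 each). FK506 lowered none at 2 h, beside 0.762% of all genes, and 2 at 4 h, beside 1.53%. Cxcl3 fell by 2.13, and Cxcl2 by 0.60. The call of Cxcl2 was lost without curdlan + FK506 4 h replicate 1, at -0.56 (limma adjusted p = 0.0628). The list median with FK506 at 4 h was 0.02, against 0.03 over all genes.

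Clec7a, the dectin-1 gene, stood at -0.01 with curdlan at 2 h and 0.20 at 4 h, and did not pass. Nfatc2, an NFAT factor, was lower with curdlan at 4 h by 0.70 (limma adjusted p = 1.52e-08). Actb, a structural gene, changed by 0.01.

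In genome order, the chemokine genes of chromosome 5 stood among genes with other responses. The order is Naaa, Sdad1, Cxcl9, Art3, Cxcl10, Cxcl11, Nup54 and Scarb2, leaving out pseudogenes other than Cxcl11 and non-coding genes. With curdlan at 4 h, Art3, which lies between Cxcl9 and Cxcl10, stood at -0.02, Nup54 at 0.10 and Scarb2 at 0.29. None of these passed. Art3 was low in every group, with means between 4.30 and 4.48 against a lower quartile of 5.28 over all genes. Whether it lay above background is not known. Sdad1 was higher by 0.73, and Naaa fell by 0.88. These neighbours were named for their position, after earlier results were known.

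Cxcl16 lies between Med11 and Zmynd15. Its annotated span and that of Zmynd15 share 552 bases, so their values may not be independent. Zmynd15 was higher than in nontreated cells by 1.51 with FK506 at 4 h (limma adjusted p = 2.95e-08) and by 1.62 with curdlan alone (limma adjusted p = 7.50e-09), and FK506 against curdlan alone did not pass at either time (0.37 at 2 h and -0.12 at 4 h). Med11 stood at 0.42 with curdlan at 4 h, under the fold threshold.

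**Figure D4:**
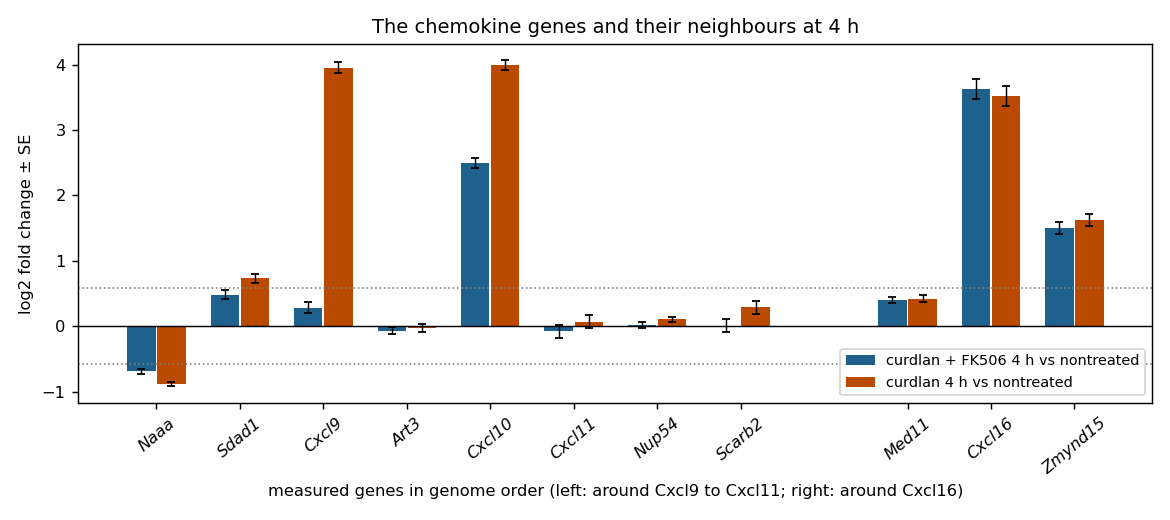
Log2 fold change ± SE (vertical axis) at 4 h against nontreated cells, for curdlan with FK506 and for curdlan alone, of the measured genes in genome order around the chemokine genes (horizontal axis), with dotted lines at the fold threshold of 1.5. Cxcl9 shows bars of 0.28 and 3.96, and its neighbour Art3, which was low in every group, shows none past the threshold.

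Across the 15 arrays, the 4 genes were alike only in part. Pearson's r was 0.84 for Cxcl10 with Cxcl16, 0.78 for Cxcl9 with Cxcl10 and 0.47 for Cxcl9 with Cxcl16, while Cxcl11 lay between -0.07 and 0.38 with the others. The points share their groups, so these values describe the group pattern. Among about 2428 genes whose group means spanned at least 1.5-fold, the 3 most like Cxcl9 were Abhd12b (r = 0.989), Idi2 (0.982) and Capn5 (0.979). With FK506 at 4 h they changed by -3.43, -2.41 and -0.78 relative to curdlan alone, and all 3 passed. The like genes were picked over these same arrays. Their changes, here and below, therefore largely follow from that choice and are not separate evidence. Most like Cxcl10 were Csf1, the macrophage growth factor (0.994), the tetraspanin Cd9 (0.990) and the Mediator subunit Med21 (0.987), of which Csf1 (-1.56) and Med21 (-0.61) were lower with FK506 at 4 h and Cd9, at -0.43, did not reach the fold threshold. The Med21 call was lost without curdlan 4 h replicate 1 (-0.57). Most like Cxcl16 were Sytl3 (0.997), the myosin Myo1g (0.994) and Ttc39c (0.990), none of which passed with FK506 at 4 h. The genes most like Cxcl11 were less alike, at 0.714 for Lad1, 0.689 for Slc7a3 and 0.680 for Dpysl5.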

How the data were processed

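RNA of D1 cells was measured on 15 Affymetrix Mouse Gene 1.0 ST arrays, in 5 groups of 3. The values used were deposited by the authors as log2 levels made by RMA, which corrects background, quantile-normalizes the arrays and summarises the probes of each probe set (the submitters' notes name affy and R 2.15.2). Quantile normalization hides a shift of all genes at once, and array medians lay between 6.45 and 6.57. The genome build was not given in the sources used here.

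Of 34760 probe sets, 21640 had 1 gene symbol in the platform annotation, 1321 several and 11799 none. Only the first kind was tested, and where a gene had several (954 genes) the brightest on average was kept, giving 19937 genes. With limma 3.58.1 (R 4.3.3), each of the 5 groups was given its own mean in 1 linear model of the 15 arrays (10 residual degrees of freedom), with empirical Bayes moderation and two-sided p values adjusted over 19937 genes by the Benjamini-Hochberg method. A gene passed at an adjusted p under 0.05 and a fold of at least 1.5 (log2 0.585). Differences are the group named first minus the second. The fit was tested on simulated data. Promoter windows came from RefSeq (GRCm38.p6), where 2 of the 4 genes had one.

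The named genes were the 4 chemokine genes, the 3 genes most correlated with each, all measured receptors and processing enzymes, up to 4 of the largest called changes per list at 4 h with curdlan and with FK506, and Clec7a, Nfatc2 and Actb. The 4 genes and all gene lists were chosen with earlier results of these data known. The 25 alternatives were repeated quantile normalization, median centring, a filter on low values, all probe sets, a fit of only the groups compared, array weights, trended and robust moderation, no fold threshold, the replicate number as a block, both outlying arrays left out (added after seeing the data), and each of the 15 arrays left out in turn. The number of arrays limits the precision.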

Additional observations from a re-analysis of the deposited data

Results flagged for a closer look

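These values are differences in the FK506 effect between the times (4 h minus 2 h, log2 scale), each past the limma threshold for that difference itself. They take no account of how far curdlan alone moved each gene at each time. Cxcl9 gave -2.65 and Cxcl10 gave -0.61. Of the genes most like a member, Abhd12b gave -2.84, Idi2 -1.85, Capn5 -0.63 and Dpysl5 -0.63. They were picked for likeness over the same arrays, so their values are not separate evidence. The Dpysl5 call was lost when any 1 of 8 arrays was left out (limma adjusted p between 0.0650 and 0.0801). The Capn5 call was lost without curdlan + FK506 4 h replicate 2 (-0.57), with repeated quantile normalization (-0.57) and with array weights (-0.57). Of the interferon genes, Irf7 gave -1.35, Ifi205 -1.36, Rsad2 -1.35, Ifit1 -1.80, Ifit2 -1.82, Ifit3 -1.97 and Mx2 -1.87. The chemokine gene Cxcl3 gave -1.67, and the macrophage marker Mertk gave -0.68.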

How the results depend on the processing

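Of 900 values (36 results of the 4 genes in each of 25 alternatives), 884 kept their call, and no called value changed sign. Of these, 10 turned sign without passing in either fit, all of Cxcl11 (with FK506 at 2 h against curdlan alone, and at 4 h against nontreated cells). Where a setting left the values of the compared arrays as they were, the difference itself could not change. Cxcl10 between 2 h and 4 h with FK506 passed at 0.61 with repeated quantile normalization and at 0.57 with no fold threshold. Without single arrays it lay between 0.51 and 0.60. Its difference of FK506 effects was under the fold threshold at -0.53 with repeated quantile normalization, -0.58 with array weights and -0.54 without both arrays that stood apart, and lay between -0.67 and -0.54 without single arrays. Cxcl9 with FK506 at 4 h against nontreated cells passed at 0.28 with no fold threshold. Cxcl16 with FK506 at 2 h against curdlan alone was 0.57 without both arrays (limma adjusted p = 9.75e-05, under the fold threshold) and lay between 0.57 and 0.80 without single arrays. The other calls of the 4 genes held without both arrays. Of 30 same-numbered pairs of arrays, 9 had deviations correlated over 0.1 (range -0.73 to 0.58). Differently numbered pairs were not examined, so this cannot decide whether the replicate numbers pair the arrays. With the replicate block, no call of the 4 genes changed, and Cxcl16 with FK506 at 2 h was 0.69 (limma adjusted p = 0.0196). Gene counts moved most with no fold threshold, when 2810 genes were higher and 4622 lower with curdlan at 4 h, against 1007 and 828. Median centring gave 545 lower with curdlan at 4 h, and 27 higher with FK506 at 4 h.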
